A study of Mus musculus with 4 samples.

Results

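The genes examined here encode the proteins of the cytosolic ribosome. They were taken by symbol, as Rpl or Rps followed by a number with at most the letter a, l or x, together with Rplp0, Rplp1, Rplp2 and Rpsa. The rule found 80 of the 25050 genes in the table: 43 proteins of the large subunit, 30 of the small subunit, the 3 P stalk proteins and 4 paralogs. RNA was sequenced from HT-22, a mouse hippocampal neuronal cell line, in 2 libraries labelled wild type and 2 labelled as overexpressing Nsmce1, a DNA repair gene that encodes part of the SMC5/6 complex. All 4 libraries came from cells at passages 21 to 24. The series text also describes the controls as uninduced cells that carry an inducible Nsmce1, so 2 descriptions of the control cells exist. The 2 wild-type libraries are called the controls below. Whether libraries of 1 group were grown as separate cultures is unstated, so each p-value reflects spread among these 4 libraries alone, and an effect of Nsmce1 cannot be told apart from other differences between the cell populations.

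A ribosome joins 1 copy of nearly every ribosomal protein with the ribosomal RNAs. The small subunit reads the messenger RNA, and the large subunit forms the peptide bond and releases the growing chain through its exit tunnel. Most messenger RNAs of these proteins begin with a C followed by a run of pyrimidines, the 5′ terminal oligopyrimidine tract, through which the mTORC1 pathway controls their translation together.

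The deposited values were log2 of normalised reads plus 1, and they gave back whole reads for every value. Library totals ran from 25787452 to 44602989 reads, and mitochondrially encoded genes took 5.08% to 5.29% of them. Nsmce1 itself had 1108 and 1206 normalised reads in the controls and 17851 and 16525 in the overexpression libraries, a log2 fold change of 3.89 (SE 0.0856, limma adjusted p = 9.06e-05). Of 10 neuron markers, 6 had a row and only Tubb3 and Syp reached the filter, with a summed level of 478 to 658 normalised reads over the list, while 6 of 6 fibroblast markers had a row and summed to 293474 to 366353, led by Col1a2. The neuron markers with a row were near 0, apart from Tubb3, and so was the fibroblast marker Lum, at 0 to 13.7. The astrocyte list (3 of 5 with a row) summed to 3368 and 3021 normalised reads in the controls and to 4556 and 4261 in the overexpression libraries. Nearly all of it was Slc1a3, with Gfap at 0 to 7.54. Aldh1l1 on this list went the other way, with both overexpression libraries far below its 57.8 and 65.3 in the controls. The microglia and leukocyte list (5 of 5) summed to 2245 and 1900 against 1652 and 1538, nearly all of it Tmem119, with Ptprc at 0 to 6.29. Aif1 on it overlapped, with 46.5 and 67.4 against 65.0 and 40.1. The groups did not overlap for these 2 sums. They overlapped for the fibroblast sum, for the oligodendrocyte list (4 of 5, from 5204 to 5959, led by Cspg4) and for the endothelial list (3 of 4, from 30.2 to 51.6). The part of any cell-type difference in the results below was not tested.

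No ribosomal protein gene passed the test between the groups. Of the 79 genes whose mean reached 10 normalised reads, 0 had a limma adjusted p under 0.05, against 0.193% of all 15540 genes tested. The count was also 0 with limma voom. At an unadjusted p under 0.05 there were 9 of 79 genes, or 11.4%, against 7.92% of all genes tested: 6 lower (7.59%, against 3.6%) and 3 higher (3.8%, against 4.32%). The estimates nevertheless lay mostly on the same side: 72 of 79 log2 fold changes, overexpression minus wild type, were below 0, against 48.7% of all genes tested. Their median was -0.13, beside 0.005 over all genes, and they ran from -0.44 for Rpl36a to 0.28 for Rps27l. Both overexpression libraries lay below both wild-type libraries in 56 genes (70.9%; 18.3% of all genes tested) and above both in 4 genes (5.06%; 20.8% of all genes tested). Without wild-type library 2, 63 genes (79.7%) were below 0, against 49.4% of all genes tested, and the median was -0.07. Both overexpression libraries then lay below the remaining control in 58 genes (73.4%), against 31.8% of all genes tested.

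**Figure D1:**
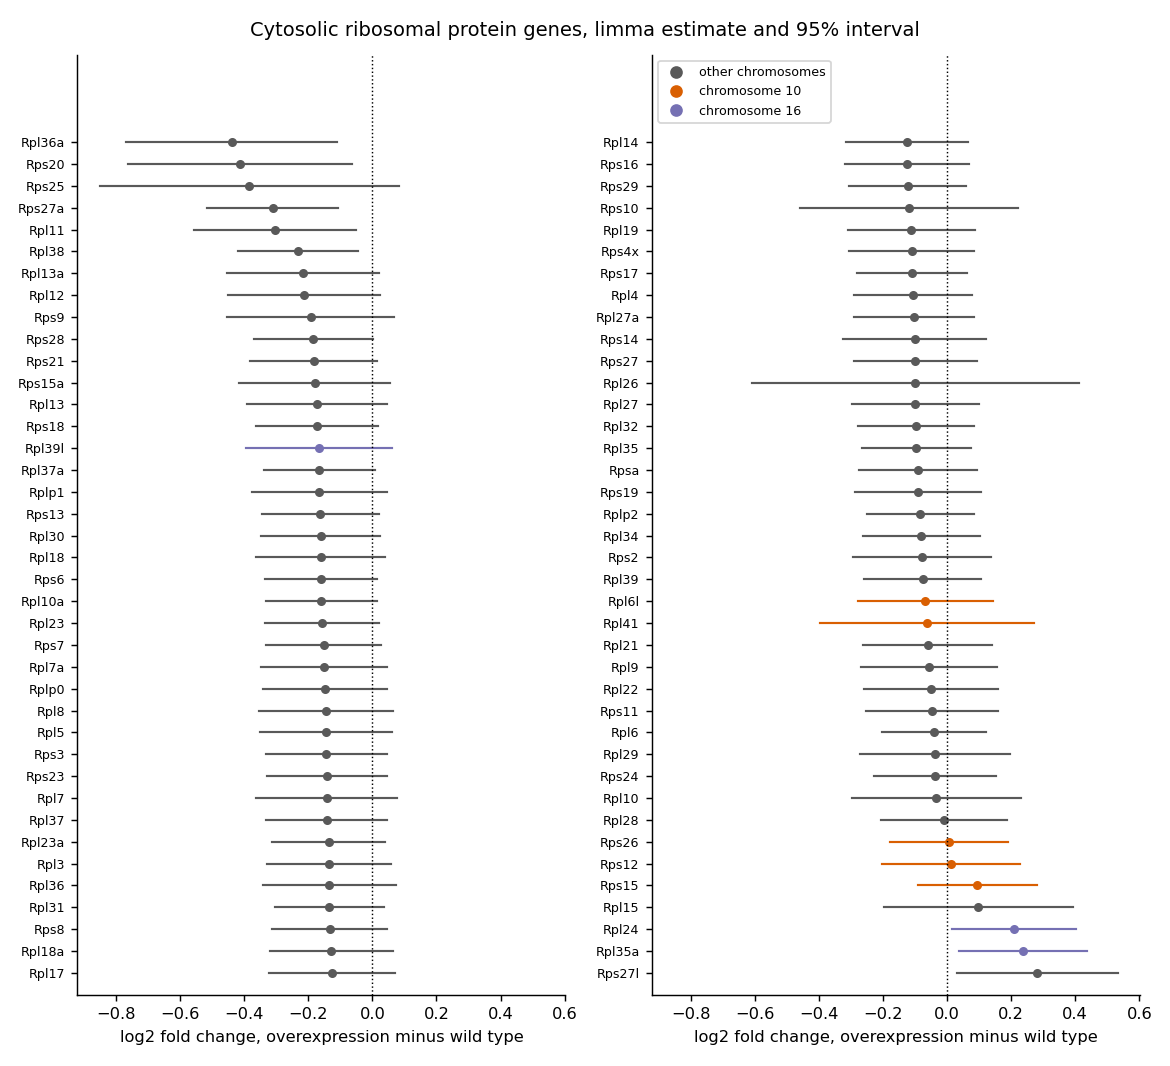
The log2 fold change of 78 tested ribosomal protein genes (x axis, overexpression minus wild type) is a point with its 95% interval from limma as a line, ordered from lowest to highest. Most points lie left of 0, 8 of these intervals leave out 0, and 5 of the 7 genes right of 0 are on chromosome 10 or 16.

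The estimates were more precise than is usual in this table. The median standard error of the 79 log2 fold changes was 0.0805, against 0.133 over all genes tested, and it ran from 0.0669 to 0.210. No estimate exceeded 0.5 in size, and the 95% intervals reached from -0.85 at the lowest to 0.53 at the highest.

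The order of the libraries was shared by most members. Set against each gene's own mean over the 4 libraries, the median log2 deviation was 0.002 in wild-type library 1, 0.12 in wild-type library 2, -0.04 in overexpression library 1 and -0.09 in overexpression library 2. Wild-type library 2 was the highest of the 4 for 67 genes, and overexpression library 2 was the lowest for 52. The 2 wild-type libraries also stood apart from each other, with library 2 above library 1 in 73 of 79 genes by a median of 0.12. That gap between libraries of 1 group was about as large as the median difference between the groups. In 43 of 79 genes the larger within-group gap exceeded the difference of the group means.

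Each overexpression library could also be set against each wild-type library. Against wild-type library 2, the median difference was -0.16 for overexpression library 1 and -0.20 for library 2, and 70 and 75 genes were lower. Against wild-type library 1, the medians were -0.04 and -0.08, and 60 and 68 genes were lower. The direction was thus the same in all 4 pairs of libraries, while its size depended on which wild-type library was used.

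**Figure D2:**
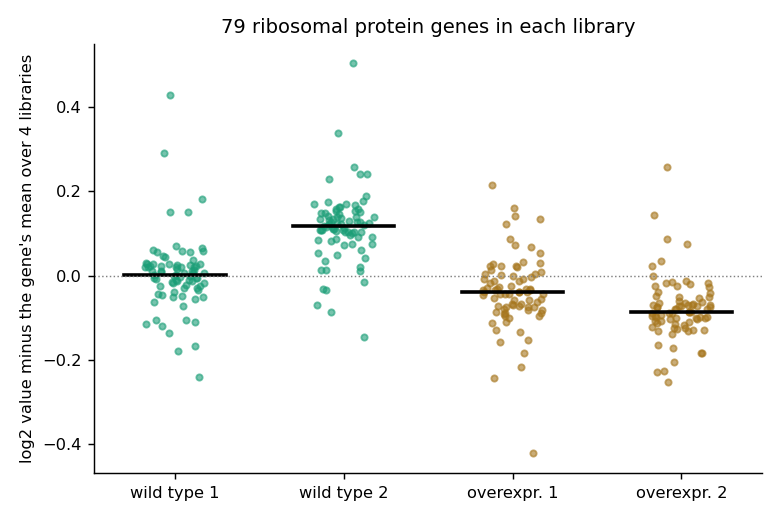
Each point is a ribosomal protein gene in 1 library, as its log2 value minus that gene's mean over the 4 libraries (y axis), and the black bar is the median of 79 genes. The bars fall from wild-type library 2 at 0.12 to overexpression library 2 at -0.09, with wild-type library 1 at 0.002 between them.

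As a share of all reads, the 80 genes took 4.62% and 4.98% in the controls and 4.46% and 4.34% in the overexpression libraries. The means were 4.80% ± 0.254 (SD, n = 2) and 4.40% ± 0.083 (SD, n = 2), a difference of -0.394 percentage points. Both overexpression shares lay below both wild-type shares. The 2 wild-type libraries differed by 0.360 points, nearly as much as the groups, and without wild-type library 2 the group difference was -0.215 points. The exact permutation test gave a two-sided p of 0.333, the smallest that 2 against 2 libraries allow.

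The reads were spread over many members, and without the 5 most abundant the share was 3.91% in the controls and 3.59% in the overexpression libraries. In reads per kilobase of the transcript chosen for each gene, Rps6 stood highest with 58619 normalised reads per kilobase. It was followed by Rpl23a with 55670, Rpl32 with 55604, Rplp0 with 54730 and Rps4x with 51092. The median of 76 canonical members on this scale was 20817. The scale depends on the annotated transcript chosen, which had 3706 bases for Rps20 and up to 5179 bases among canonical members. Rps6, the substrate of the S6 kinases, had 52959 and 55732 normalised reads in the controls and 48811 and 48367 in the overexpression libraries. These groups did not overlap, and the log2 fold change was -0.16 (SE 0.0714, limma adjusted p = 0.657). In normalised reads, not divided by length, Rplp0 was the highest at a mean of 74324 and Rpl29 the lowest canonical member at 3089. Both this order and that per kilobase are of gene rows only. Of the sum of gene and copies, 82.3% for Rpl29 and 82.0% for Rps2 lay in rows of matched pseudogenes, as described below.

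The 3 proteins of the P stalk, which recruits the elongation factors, all lay lower in the overexpression libraries with no overlap. So did 72.1% of large-subunit and 70.0% of small-subunit genes, against 18.3% of all genes tested. Rplp0, the base of the stalk, had 74508 and 81761 normalised reads in the controls and 70603 and 70424 in the others, a log2 fold change of -0.15. Rplp1, an acidic protein that binds this base, had 24869 and 28335 against 23986 and 23342 (log2 fold change -0.17). Its partner, Rplp2, had 15556 and 15972 against 14708 and 15051 (log2 fold change -0.08). The overexpression values were nearly level within each of the 3 genes, and wild-type library 2 was the highest library in each. Without that library the log2 fold changes of Rplp0 and Rplp1 were -0.08 and -0.07.

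The subunits gave the same median. Of 43 large-subunit genes, 40 were below 0 with a median log2 fold change of -0.13, and of 30 small-subunit genes, 27 were below 0, also with a median of -0.13. The 7 large-subunit proteins at the tunnel exit (Rpl17, Rpl19, Rpl23a, Rpl26, Rpl31, Rpl35 and Rpl39) were all below 0, with a median of -0.11. Of 15 members known as Diamond-Blackfan anaemia genes, an inherited failure of red cell formation, 12 were below 0 and the median was -0.10. None of these groups held a gene that passed the test.

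The member with the smallest p was Rps27a, a small-subunit protein made as a fusion with ubiquitin. It had 14422 and 16227 normalised reads in the controls and 12568 and 12093 in the overexpression libraries. The groups did not overlap, with both overexpression values close together, and the log2 fold change was -0.31 (SE 0.0841, unadjusted p = 0.0098, limma adjusted p = 0.413), or 19.4% less. Rpl38, a large-subunit protein needed for axial patterning in the mouse, had 6291 and 6808 against 5590 and 5543 normalised reads. Its log2 fold change was -0.23 (SE 0.0768, limma adjusted p = 0.528). Rps28, a small-subunit protein near the exit of the messenger RNA channel, had 9214 and 10029 against 8440 and 8485, with a log2 fold change of -0.18 (SE 0.0762, limma adjusted p = 0.626). All 3 genes shared the order with wild-type library 2 highest.

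The largest negative estimates came with wide gaps inside a group. Rpl36a, a large-subunit protein, had 12403 and 13076 normalised reads in the controls but 8165 and 10804 in the overexpression libraries. The log2 fold change was -0.44 (SE 0.135, limma adjusted p = 0.492), -0.24 without overexpression library 1 and -0.64 without overexpression library 2. Rps20, a protein of the small-subunit head, had 20013 and 14728 against 13096 and 12689. Wild-type library 1 stood high there, and the log2 fold change of -0.41 (SE 0.144, limma adjusted p = 0.549) was -0.19 without it and -0.63 without wild-type library 2. Rps25, a small-subunit protein used by some viral internal ribosome entry sites, had 7185 and 11065 against 6997 and 6676. Wild-type library 2 was the high one in this gene, with a log2 fold change of -0.38 (SE 0.192, limma adjusted p = 0.686), -0.07 without it and -0.70 without wild-type library 1.

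Rpl11 and Rpl5 form a particle with 5S ribosomal RNA that can bind Mdm2, the ubiquitin ligase of p53. Rpl11 had 13378 and 11051 normalised reads in the controls and 9982 and 9718 in the overexpression libraries, with no overlap. The log2 fold change was -0.30 (SE 0.104, limma adjusted p = 0.549), and -0.17 without wild-type library 1. Rpl5 had a log2 fold change of -0.14, and -0.06 without wild-type library 2. Rpl11 was thus highest in wild-type library 1, against the order of most members.

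Several other members differed more within a group than between groups. Rpl26, a tunnel-exit protein, had 17311 and 25843 normalised reads in the controls and 17287 and 22566 in the overexpression libraries, with full overlap (log2 fold change -0.10, SE 0.210). Rps10, which like Rps20 is ubiquitinated when ribosomes collide, had 16957 and 14921 against 16758 and 12814 (log2 fold change -0.12). Rpl41, the shortest ribosomal protein, had 11747 and 9966 against 11673 and 9190 (log2 fold change -0.06). In all 3 genes the signs turned when 1 library was left out: Rpl26 gave 0.19 without wild-type library 2, and Rps10 and Rpl41 gave 0.08 and 0.11 without overexpression library 2. Rps9 had 19037 and 23283 against 18657 and 18200 (log2 fold change -0.19, and -0.05 without wild-type library 2). Rpl10, at the subunit interface, had 16496 and 19823 against 18544 and 16833 (log2 fold change -0.03, and 0.10 without wild-type library 2). In all, 10 members had a gap of over 0.25 on the log2 scale inside a group.

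Only 7 members were above 0. Rpl35a, a large-subunit protein, had 3126 and 3342 normalised reads in the controls and 3923 and 3694 in the overexpression libraries. The log2 fold change was 0.24 (SE 0.0821, limma adjusted p = 0.549), or 17.8% more. Rpl24, which bridges the subunits, had 13112 and 14503 against 16146 and 15750, a log2 fold change of 0.21 (SE 0.0792, limma adjusted p = 0.589) that was 0.14 without wild-type library 1. Neither gene's groups overlapped. Rps27l, a paralog of Rps27 that p53 can induce, had 1959 and 1948 against 2190 and 2575. It had the highest estimate, 0.28 (SE 0.103, limma adjusted p = 0.563), which was 0.16 without overexpression library 2. Rps15, of the small-subunit head, had 19578 and 21224 against 22141 and 21395, also with no overlap (log2 fold change 0.09). It was 0.04 without wild-type library 1.

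The other 3 genes above 0 overlapped between the groups. Rpl15, a large-subunit protein, had 11007 and 11983 normalised reads against 13781 and 10956 (log2 fold change 0.10), and it was -0.07 without overexpression library 1. Rps12 had 15509 and 17768 against 17021 and 16458 (log2 fold change 0.01). Rps26, which contacts the messenger RNA before the start codon, had 10768 and 11579 against 11436 and 10983 (log2 fold change 0.005). The estimates of Rps12 and Rps26 were below 0 without wild-type library 1.

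Chromosome moved with these exceptions. On chromosome 10, the median over all tested genes was 0.14, with 564 of 752 above 0, and on chromosome 16 it was 0.17, with 339 of 448 above 0. The 14340 genes tested on the other chromosomes had a median of -0.003. Of the 7 members above 0, Rps15, Rps12 and Rps26 are on chromosome 10 and Rpl35a and Rpl24 on chromosome 16. The other members there are Rpl41 and the paralog Rpl6l on chromosome 10 and the paralog Rpl39l on chromosome 16. On all other chromosomes 69 of 71 members were below 0, with a median of -0.13, and 55 of 71 (77.5%) had both overexpression libraries below both wild-type libraries, against 19.2% of all genes tested there.

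When each library's median for each chromosome was removed, 75 of 79 members were below 0. Rps15, Rps12 and Rps26 then turned to -0.05, -0.13 and -0.14, while Rpl35a went to 0.08 and Rpl24 to 0.05. Rps27l on chromosome 9 and Rpl15 on chromosome 14 stayed at 0.25 and 0.09. The part of chromosome-wide differences between the cell populations in these values was not tested further.

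**Figure D3:**
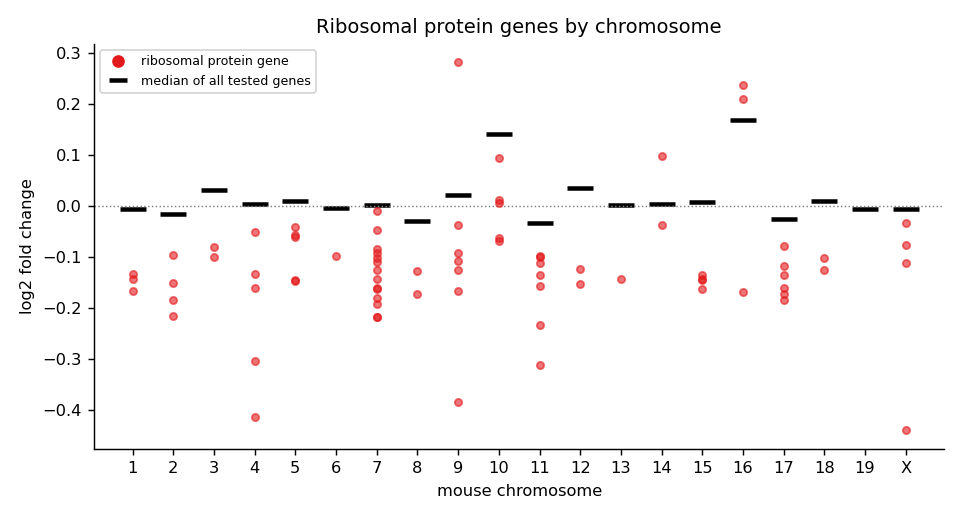
Each red point is the log2 fold change (y axis) of a ribosomal protein gene, placed by its mouse chromosome (x axis), and each black bar is the median of all genes tested there. The bars of chromosomes 10 and 16 stand at 0.14 and 0.17, and the members on both lie higher than most others, except Rpl39l at -0.17.

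The paralogs differed among themselves. Rpl3l, which replaces Rpl3 in striated muscle, was the member below the filter, with 2 reads in overexpression library 1 and 0 in the other libraries, where a count of 0 allows up to 3 reads. Rpl39l, a paralog of Rpl39 best known from male germ cells, had 2260 and 2442 normalised reads against 1994 and 2194 (log2 fold change -0.17, and -0.10 without overexpression library 1). With chromosome medians removed it was at -0.33 (SE 0.0901, limma adjusted p = 0.482), the lowest adjusted p of any member in that fit. Rpl6l had 4299 and 4799 against 4432 and 4239, with overlap (log2 fold change -0.07). The GENCODE annotation calls it a processed pseudogene of Rpl6, with 98.7% identity, so its reads may belong to either.

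Reads of ribosomal protein genes are hard to place because the mouse genome holds many processed copies of them. By sequence, 651 pseudogene rows of the table matched 75 of 79 members searched, at 90% identity or more over 80% of the row's transcript. Of these rows, 335 averaged 10 normalised reads or more. The 79 searched are those annotated as protein-coding. Rpl6l is not among them and counts here as a copy of Rpl6, but as a member in the shares of all reads. The matched rows made up a median of 15.8% of the sum of a gene and its copies, and over 10% for 47 members. The highest shares were 82.3% for Rpl29, with 40 matched rows, and 82.0% for Rps2, with 41. Rps2, at the messenger RNA entry, had 12896 and 14190 normalised reads in the controls and 12183 and 13488 in the overexpression libraries. Its copies together had 59118 and 68100 against 53313 and 60045. The log2 fold change of the sum was -0.15, against -0.08 for the gene row alone, which was -0.004 without overexpression library 1 and -0.15 without overexpression library 2. The level of such a gene therefore depends on where the authors' counting placed the shared reads, and the fold changes of these members are uncertain to that extent.

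Adding the copies did not move the family as a whole. Among the 75 members with a match, 68 sums were below 0 with a median difference of -0.12, beside 68 gene rows with a median of -0.13. The share of all reads with the copies included was 5.77% and 6.21% in the controls and 5.57% and 5.44% in the overexpression libraries. The matched rows alone took 1.16% and 1.24% against 1.11% and 1.09%. Their reads may come from the members' own transcripts. Whether a read could be counted in both a gene row and a copy is not given, and such a read would enter these sums more than once. In the 55 members whose copies summed to at least 1000 normalised reads, 51 sums of copies were below 0, with a median of -0.11.

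The copies separated the members with the largest estimates. For Rps27a they had 4812 and 5135 normalised reads against 4169 and 3871, a log2 difference of -0.31, as for the gene row. For Rpl35a the copies made 75.3% of the sum and had 9592 and 10213 against 11749 and 11463, a log2 difference of 0.23. Of their 16 rows, 14 lie outside chromosome 16. The copies of Rpl24, none of them on chromosome 16, had 2814 and 2768 against 3244 and 3241, a log2 difference of 0.22. In these 3 genes, copies and gene row differed alike between the groups. Reads placed on copies may come from the gene's own transcripts, so the chromosome of a copy does not locate the difference.

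Where the gene row had a wide gap inside a group, the copies did not share it. The Rps25 row was 0.62 higher in wild-type library 2 than in library 1 on the log2 scale, while its copies had 902 and 910 normalised reads there and 988 and 834 in the overexpression libraries. The Rps20 row was 0.44 lower in wild-type library 2, while its copies had 1630 and 1733, then 1703 and 1554. For Rpl36a the copies had 2277 and 2401 against 2200 and 2121, with no sign of the low value in overexpression library 1. Copies of Rpl26 had 1909 and 1920 against 1713 and 1751, where the gene row was 0.58 apart within wild type and 0.38 within overexpression. Copies of Rpl11 had 4109 and 4519 against 4149 and 3808, and thus lacked the high value of wild-type library 1. Copies of Rps10 and Rpl41 also lacked the gaps of their gene rows.

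**Figure D4:**
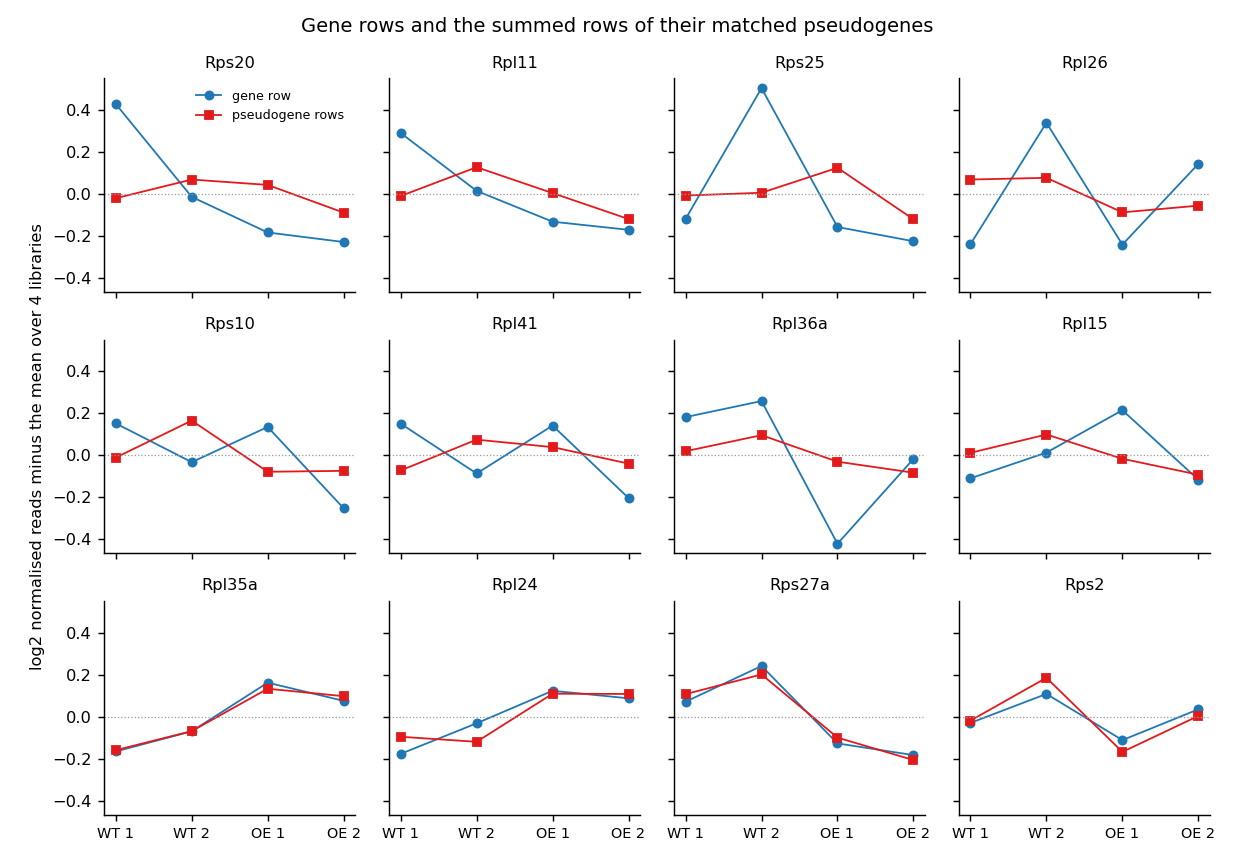
For 12 ribosomal protein genes, blue circles give the gene row and red squares the summed rows of its matched pseudogenes in wild-type (WT) and overexpression (OE) libraries, as log2 normalised reads minus the mean over the 4 libraries (y axis). In the upper 8 panels the gene row swings between libraries and the copies do not follow it, and in the lower 4 (Rpl35a, Rpl24, Rps27a and Rps2) both run together.

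Some members overlap another gene in the GENCODE annotation. Rps25 overlaps Ccdc84 and Trappc4 on the opposite strand, and neither row shared its high value: Ccdc84 had 1042 and 973 normalised reads in the controls and Trappc4 had 767 and 712. Rpl19 holds a microRNA row, Gm27597, on its own strand, with 5767 and 6341 normalised reads in the controls and 5526 and 5467 in the overexpression libraries. Whether counting used the strand was not stated in the labels or notes.

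Transcript length moved with the result across the whole table. Ribosomal protein transcripts are short, with a median of 814.5 bases. Among tested genes outside the family, the median log2 fold change was -0.05 both for transcripts up to 500 bases and for those over 500 and up to 1000 bases, and 0.04 for those over 4000 bases. Among those with at least 2000 normalised reads it was -0.06 for 46 genes up to 500 bases, -0.04 for 169 genes of over 500 to 1000 bases and 0.04 for 1678 genes over 4000 bases. The members in the same classes had medians of -0.12 for 14 genes up to 500 bases, -0.13 for 41 genes of over 500 to 1000 bases and -0.13 for 20 genes of over 1000 to 2000 bases. They lay lower than other genes of like length in each of these 3 classes. The part of length in the result was not tested.

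**Figure D5:**
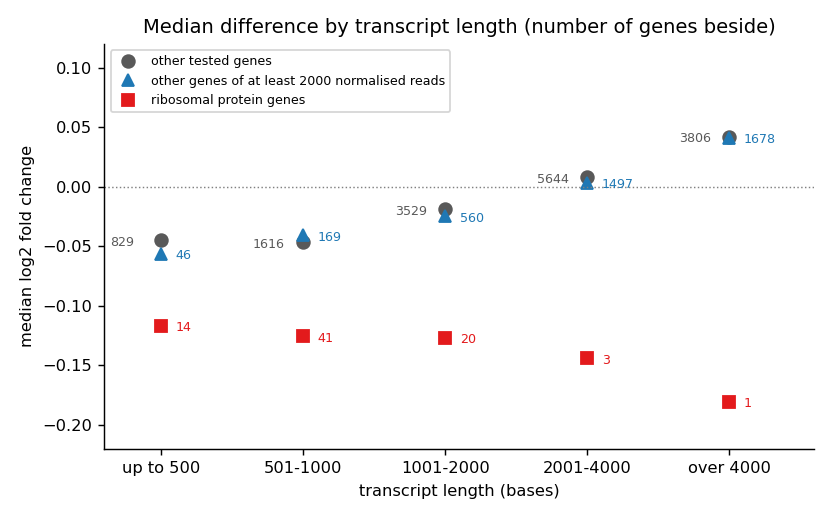
The median log2 fold change (y axis) is shown by transcript length (x axis) for tested genes outside the family (grey circles), those of at least 2000 normalised reads (blue triangles) and ribosomal protein genes (red squares), with the number of genes beside each point. The members lie between -0.12 and -0.18, under the other genes in every class, with only 3 members and 1 member in the classes above 2000 bases.

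The start of the transcript was examined because the oligopyrimidine tract is the feature by which these messenger RNAs are known. RefSeq starts (GRCm38.p6) were matched for 59 of 80 members. A C followed by at least 5 more pyrimidines, starting within 10 bases of an annotated start on the transcript's strand, was found in 33 of 59 members (55.9%), against 21.9% of 27025 genes. The windows below run from 12 bases before to 16 bases from the annotated start, with the run in capitals. They are shown for some of the named members that had a run. Rps6, Rpl38 and Rps9 come from the lower side, Rpl35a, Rpl15, Rps12, Rps26 and Rps27l from above 0, and Rps10 has wide gaps. Rps27a, Rpl36a, Rps20, Rps25, Rpl11, Rpl24 and Rps15 had no matched start or no run, so no window is given. The Rps12 run goes on past its window, to 11 bases. In Rps27l the bases just before the capitals are pyrimidines too, and only the part from 10 bases before the start is marked.
Rps6, chr4:86857352-86857379, minus strand: cggaagtcgggCCTCTTTTTCgtgacgc
Rpl38, chr11:114668568-114668595, plus strand: ggaagcctcgttCTTTCCCCgttctctt
Rps9, chr7:3704029-3704056, plus strand: gccttgtCTCTCTTTgtctcgggcctga
Rpl35a, chr16:33056470-33056497, plus strand: gggcttgCCTTCCTCTTTCCgccatctt
Rpl15, chr14:18270971-18270998, minus strand: ggagaaagCCTTCTTCCTTTCCTCTggc
Rps12, chr10:23787194-23787221, minus strand: cgtcatgcggccaccgccggCCTTTTCC
Rps26, chr10:128626491-128626518, minus strand: gggcaagccgccggatCCTCTTTCgagt
Rps27l, chr9:66946074-66946101, plus strand: ctCCTCCCCgccgcctctatcccggaag
Rps10, chr17:27635229-27635256, minus strand: ccgcgcacgCCCCTTCCTTTCCagcctc

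Members with and without such a run had similar estimates. The median log2 fold change was -0.11 for the 33 with the run and -0.14 for the 26 without it, and the windows above come from members on both sides of 0. In the 250 bases before the start, read on both strands, TATAAA was found in 5.08% of matched members against 14.3% of all genes, CCAAT in 30.5% against 37.5% and CACGTG in 8.47% against 6.86%. AAGATGGC was found in 5.08% against 1.83%, CCGGAAG in 30.5% against 7.83% and the palindromic ZBTB33 motif in 8.47% against 0.448%. None of the 6 motifs contains another. These matches describe the letters of the windows only.

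Ribosomal proteins that the symbol rule leaves out lay on the same side. All 6 of that list were below 0, with a median log2 fold change of -0.08. Rack1, a scaffold on the small subunit, had 42190 and 39894 normalised reads in the controls and 34907 and 33728 in the overexpression libraries, with no overlap (log2 fold change -0.26, limma adjusted p = 0.440). Rpl22l1, the paralog of Rpl22, had 1343 and 1460 against 1103 and 1143 (log2 fold change -0.32, limma adjusted p = 0.467). Rps3a1, noticed as a further small-subunit gene after its values were seen, had 55335 and 58505 against 55328 and 52458 (log2 fold change -0.08, and -0.04 without wild-type library 2). Mitochondrial ribosomal proteins, which serve another ribosome, had 58 of 78 genes below 0 and a median of -0.08. In 15 of them (19.2%, against 18.3% of all genes tested) both overexpression libraries lay below both controls.

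Other transcripts with an oligopyrimidine start, among them translation factors and snoRNA host genes, had 20 of 26 below 0 with a median log2 fold change of -0.08. The lowest p values were those of host genes. Snhg8 had 2656 and 2749 normalised reads against 2168 and 2094 (log2 fold change -0.34, limma adjusted p = 0.329). Gas5, whose transcript is an mTOR-controlled host of several snoRNAs, had 5396 and 5776 against 4535 and 4465 (log2 fold change -0.31, limma adjusted p = 0.351). Neither gene's groups overlapped, and neither passed the test. Snhg12 was at -0.38, and -0.20 without overexpression library 1.

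The machinery that makes ribosomes held no gene that passed the test. Of 73 genes for maturation of the subunits, 52 were below 0 with a median log2 fold change of -0.05, among them Imp4 at -0.26. Senp3 stood at 0.24 and Lsg1, which lies on chromosome 16, at 0.29. Lsg1 was at 0.17 without wild-type library 2, and Senp3 at 0.13 without overexpression library 2. Of 15 snoRNP genes, 12 were below 0 with a median of -0.06, and Nhp2 had the lowest estimate named there at -0.45, which was -0.13 without overexpression library 1. Importers and chaperones of ribosomal proteins had 15 of 21 below 0 and a median of -0.05, with Npm1 at -0.18 and its groups overlapping. Npm1 was at -0.31 without overexpression library 1 and at -0.06 without overexpression library 2. RNA polymerase I genes had 12 of 21 below 0 and a median of -0.01, and RNA polymerase III genes 9 of 21 and 0.01. Genes of ribosome rescue and quality control had 13 of 25 below 0 and a median of -0.002.

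Upstream regulators lay on both sides. Of 21 genes of mTORC1 signalling and control of oligopyrimidine messages, 9 were below 0 with a median log2 fold change of 0.03. Of 18 genes of the Myc network and of transcription factors of ribosomal protein genes, 6 were below 0 with a median of 0.04. However, Myc itself, an activator of ribosome production, had 895 and 995 normalised reads in the controls and 800 and 666 in the overexpression libraries (log2 fold change -0.37, SE 0.130, limma adjusted p = 0.549). It was -0.24 without overexpression library 2. Of 12 genes around the 5S particle, Mdm2 and p53, 4 were below 0 with a median of 0.06. Cdkn1a, the p53 target that halts the cell cycle, had 3594 and 4007 against 4994 and 4485 (log2 fold change 0.32, limma adjusted p = 0.471). Mdm2, which lies on chromosome 10, had 2406 and 2609 against 2980 and 3075 (log2 fold change 0.27, limma adjusted p = 0.489). The groups did not overlap for Myc, Cdkn1a or Mdm2, and no gene of these lists passed the test.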

How the data were processed

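RNA of 4 HT-22 libraries was sequenced, and the authors deposited 1 table of log2 values of normalised reads plus a pseudocount of 1. HISAT, Cufflinks and the build mm9 are named in the submitters' processing notes, and counting, strand use and the normalisation are not given in the sources used here. Each deposited value gave a whole number of reads within 0.001 once the value of 1 read in its library was found (0.730 to 1.26 normalised reads). Genes with a mean of at least 10 normalised reads were tested with limma 3.58.1 (R 4.3.3, trended variance, 2 against 2 libraries, no covariate, Benjamini-Hochberg threshold 0.05), and 9510 genes were below this. Standard errors come from moderated variances. On data simulated over the 15540 genes of this comparison, 99.6% of 2-fold changes were called, with 10.4 false calls a run. The changes were placed only in genes with a mean of at least 100 normalised reads. Spread was drawn from the fitted trend, not gene by gene. Changes under 2-fold, the size of all member estimates, were not simulated, so the calling rate for them is unknown.

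Transcript lengths, chromosomes and pseudogenes came from GENCODE M21, whose build differs from mm9, and were joined by gene identifier. Its coordinates were used only to find genes that overlap a member, and overlaps in mm9 may differ. A transcript was taken as RefSeq-linked and principal, then the shortest. Pseudogenes were matched with blastn 2.17.0. Named genes were the 10 members with the smallest p, the 5 highest per length, those above 0, paralogs and P stalk, up to 3 genes of smallest p per list, and members with wide gaps or many pseudogene reads, which were chosen after their values were seen. A few genes are not reported here by name, though they count in the totals. Members and lists were chosen with earlier results of these data known. Alternatives covered pseudocount, filter, scaling, variance model, voom, a replicate block and leaving out each library.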

Additional observations from a re-analysis of the deposited data

How the results depend on the processing

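In the 16 alternative fits no ribosomal protein gene passed the threshold, and the family's median log2 fold change ran from -0.179 without wild-type replicate 1 to -0.070 without wild-type replicate 2. The difference in the share of reads ran from -0.574 to -0.215 percentage points when 1 library was left out. Over all genes, 30 were called, but 16 with no filter, 18 after quantile normalisation, 9 without a trend, 72 with robust variances, and 2 to 75 when 1 library was left out. A lone library is then assumed to vary like the others. The replicate numbers were not taken to pair the samples, since no label ties them (the correlation of same-numbered deviations was 0.007 over all tested genes and 0.310 over the 79 members), and the replicate block gave 60 calls, with 0 members called and 14 instead of 9 at an unadjusted p under 0.05. The cause of these shifts was not tested. Of 79 members, 62 kept their sign in all 16 alternatives. With chromosome medians removed, Rps15, Rps12 and Rps26 turned to -0.049, -0.13 and -0.14. When 1 library was left out, signs turned among the genes named for Rpl15 (-0.068 to 0.26), Rps12 (-0.086 to 0.11), Rps26 (-0.047 to 0.058), Rpl6l (-0.15 to 0.012), Rps10 (-0.31 to 0.075), Rpl26 (-0.39 to 0.19), Rpl41 (-0.24 to 0.11), Rpl10 (-0.17 to 0.099), Rpl29 (-0.14 to 0.068) and Fau (-0.082 to 0.056). Fits with edgeR, DESeq2 and TMM scaling were not run. In their place, voom on the recovered reads, with the authors' scaling, was added after seeing the data and called 20 genes.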
